A study of Mus musculus with 6 samples.

Results

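The genes described here are the zinc finger genes with a symbol of the form Zfp and a number that were expressed in mouse eggs arrested at metaphase II (MII), as ovulated and before fertilization. The members were chosen by their measured level: a gene was included when its mean over the 6 libraries of the series was at least 10 CPM (the count divided by the library total and multiplied by 1000000). This held for 109 of the 332 such symbols considered, among 24062 genes in the count table. Because they were selected on these levels, the levels are given as a description. The eggs came from superovulated 8-week-old females carrying HISRainbow, a multicolour transgene of tagged H3.3 histones, together with Figla-iCre, a Cre recombinase driven by the promoter of the oocyte gene Figla. Each egg expressed 1 of 3 forms of the replacement histone H3.3, and its colour was read by confocal microscopy. The group here called H3.3 expressed the unmutated histone fused to eGFP (H3.3-eGFP), the group K27R expressed H3.3 with lysine 27 replaced by arginine fused to mCherry (H3.3K27R-mCherry), and the group R26K expressed H3.3 with arginine 26 replaced by lysine fused to eCFP (H3.3R26K-eCFP). Each group had 2 libraries, and each form had its own tag, so that tag and substitution cannot be told apart. For each library, the number of eggs and females is not given in the sources used here, and p-values therefore measure the spread between these libraries.

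Most mouse Zfp genes encode proteins with tandem C2H2 fingers, each holding a zinc ion between cysteines and histidines and reading a few bases of DNA. Many of them also carry an N-terminal KRAB box, which recruits the co-repressor TRIM28 (KAP1) and through it the H3K9 methyltransferase SETDB1, HP1 proteins and DNA methylation. The KRAB genes lie in large tandem clusters, many of their proteins bind retrotransposons, and maternal stores of TRIM28 and of KRAB proteins act after fertilization to keep imprints and repeats silent.

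The 4 libraries of H3.3 and K27R held 10803477 to 12748821 counts, and those of R26K held 39603440 and 33786225. Greater depth thus came with the R26K group, and depth and substitution cannot be told apart in the comparisons with it. The R26K libraries and K27R replicate 1 stood apart by the number of genes with a count (10715 to 12135), against 7392 to 7590 in the other 3. The label of the cells held: of 12 egg markers, 11 or 12 had counts in each library, with a summed level of 45314 to 61925 CPM and Gdf9 at 10803 to 15719 CPM. Of 20 markers of cumulus and granulosa cells, 4 to 17 had counts, with sums of 999.5 and 1870 CPM for H3.3, 2103 and 1382 for K27R and 1949 and 2001 for R26K, most of it from Serpine2, while Fshr, Foxl2 and Amh were at or near 0. Other markers of this list differed between replicates. Tnfaip6 held 0 and 191 CPM for H3.3, 92.3 and 0 for K27R and 27.3 and 10.8 for R26K. Inha held 0 and 100 CPM for H3.3, 88.2 and 0 for K27R and 23.5 and 52.4 for R26K. Cyp19a1 held 0 and 147 CPM for H3.3, 46.4 and 15.2 for K27R and 26.3 and 42.9 for R26K. The 10 blood and immune markers summed to 4.2 to 48.2 CPM with haemoglobin genes and Ptprc at 0. The 10 oviduct markers summed to 259 to 428 CPM, nearly all of it Cdh1 and Pecam1, and Ovgp1, Pax8 and Foxj1 were at 0. The part of other cells in the results below was not tested.

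Upstream DNA of 4 members is shown because it runs from few to many CG dinucleotides and belongs to members on both sides of the R26K comparison below: Zfp212 and Zfp664, higher in both R26K libraries than with unmutated H3.3, and Zfp655 and Zfp735, lower in both. The sequences are RefSeq's (GRCm38.p6), written 5′ to 3′, run from 250 bases before the annotated start and end where the gene begins in GENCODE M21, and have every CG in capitals. Their positions are chr6:47920318-47920475, + strand for Zfp212, chr5:124862455-124862690, + strand for Zfp664, chr5:145231492-145231714, + strand for Zfp655 and chr11:73688528-73688777, + strand for Zfp735.
Zfp212: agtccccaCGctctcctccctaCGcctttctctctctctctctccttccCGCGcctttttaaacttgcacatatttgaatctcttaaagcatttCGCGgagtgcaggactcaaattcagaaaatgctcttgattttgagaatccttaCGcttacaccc
Zfp664: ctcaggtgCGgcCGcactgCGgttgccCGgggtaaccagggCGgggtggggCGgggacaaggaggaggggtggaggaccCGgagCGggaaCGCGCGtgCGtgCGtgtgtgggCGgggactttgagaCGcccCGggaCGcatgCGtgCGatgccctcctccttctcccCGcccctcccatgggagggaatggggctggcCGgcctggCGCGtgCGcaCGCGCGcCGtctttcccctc
Zfp655: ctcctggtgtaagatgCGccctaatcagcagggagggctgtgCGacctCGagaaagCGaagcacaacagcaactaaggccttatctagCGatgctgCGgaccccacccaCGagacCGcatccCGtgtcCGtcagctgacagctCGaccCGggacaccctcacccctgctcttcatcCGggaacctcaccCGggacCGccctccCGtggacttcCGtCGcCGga
Zfp735: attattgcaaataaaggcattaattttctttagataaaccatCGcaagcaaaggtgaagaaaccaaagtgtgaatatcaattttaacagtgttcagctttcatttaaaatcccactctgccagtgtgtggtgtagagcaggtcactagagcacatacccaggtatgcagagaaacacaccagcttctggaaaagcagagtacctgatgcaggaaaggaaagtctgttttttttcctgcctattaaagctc
In the full 250 bases the CG count was 12 for Zfp212, 28 for Zfp664, 21 for Zfp655 and 1 for Zfp735. CG reads the same on both strands, so 1 count covers both. RefSeq promoters were matched for 90 of the 109 members, which ran from 0 to 48 CG in 250 bases with a median of 11.5, and 58.9% of them had at least 10, against 78.0% of 4732 matched genes at or above 10 CPM and 51.4% of 16781 matched genes in the table.

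By coding sequence the members divided into 59 with a KRAB A box and 49 without one. A further member, Zfp939, has no coding sequence in the gene models. The boxed share, 54.6%, was close to that of the 220 Zfp genes under 10 CPM that have a coding sequence (57.7%). The members had a median of 11 C2H2 fingers, with 12 among the KRAB members and 5 among the others. Zfp236 had the most, 30, and Zfp957, Zfp750 and Zfp330 had no match to the finger pattern. Zfp449 and Zfp397 matched a short fixed motif of the SCAN box, a dimerization domain. Boxes that differ from this motif can be missed. The promoters differed in the same division, with a median of 8 CG in 250 bases for 52 KRAB members and 18 for 37 members without the box. Transcripts of the KRAB members were also poorer in GC (median 40.2%) than those of the others (48.6%) and than those of all genes at or above 10 CPM (47.6%).

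The level of a typical member was low. The median of the mean levels was 27.1 CPM: 15 members were at 100 CPM or more, 60 from 20 to under 100, and 34 from 10 to under 20. Of the other 223 Zfp genes, 58 had no count in any library. Just above the inclusion level lay Zfp182 (10.7 CPM), Zfp704 (10.5 CPM) and Zfp738 (10.5 CPM), and just below it Zfp687 (9.90 CPM), Zfp574 (9.63 CPM) and Zfp40 (8.74 CPM). Of these, Zfp182 held 0 and 0.437 CPM with unmutated H3.3, 7.96 and 55.2 with K27R and 0.0253 and 0.385 with R26K, so that 1 library carried most of its mean. Such cases were frequent: 51 members reached 10 CPM as a group mean in all 3 groups, 45 in 2 and 13 in 1, and 25 members would have been under 10 CPM without their highest library.

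**Figure D1:**
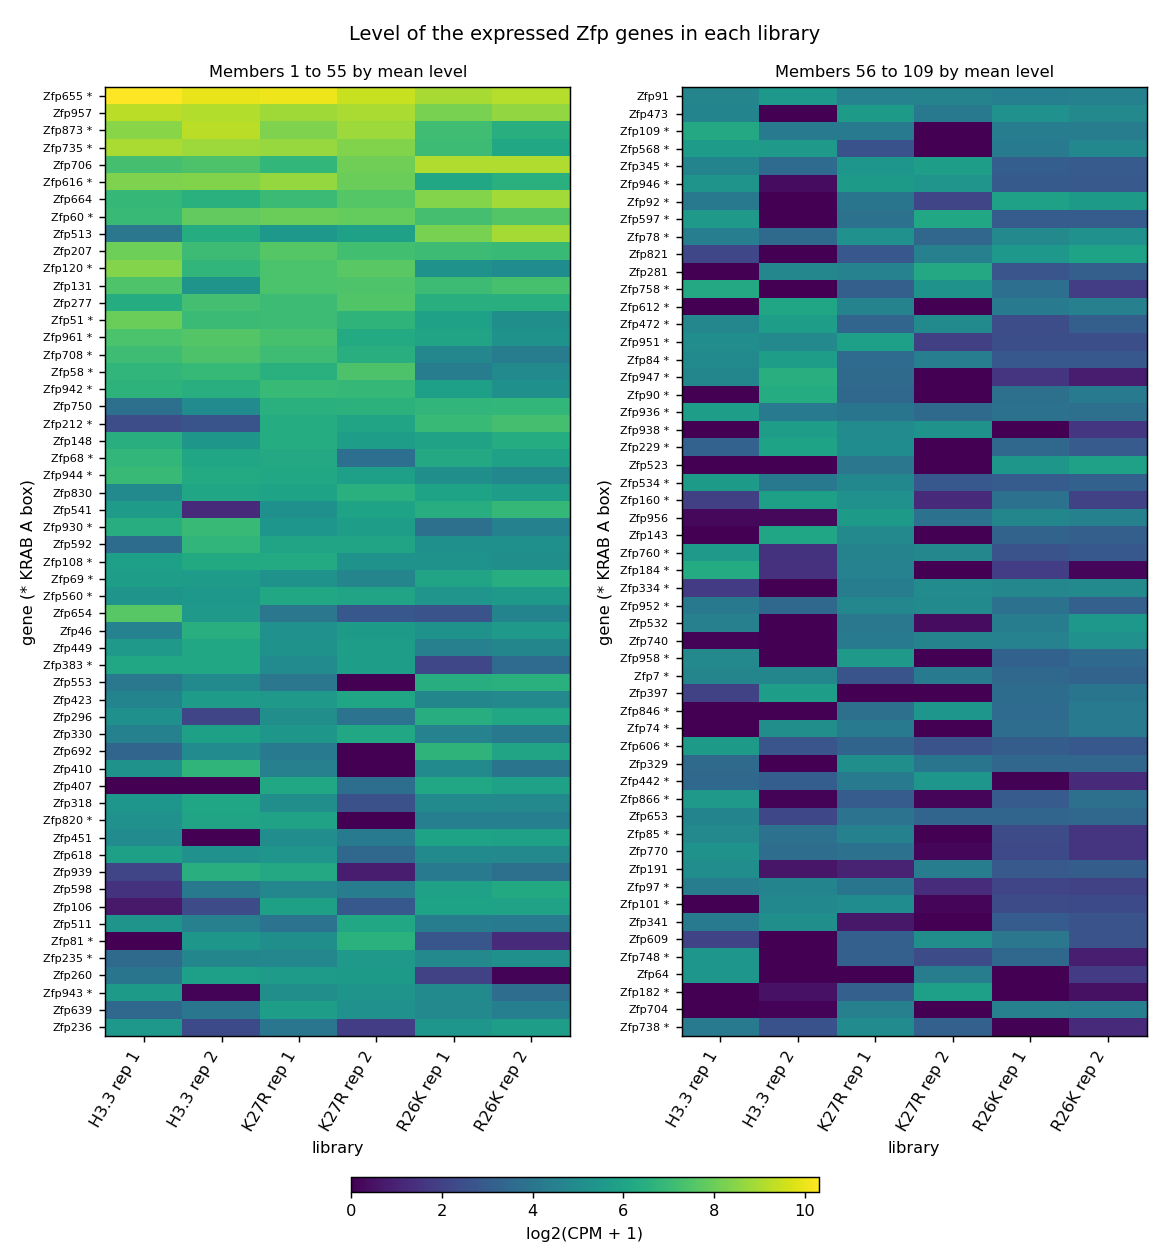
Heat map of the level, as log2(CPM + 1), of all 109 expressed Zfp genes (rows, ordered by mean level over 2 panels, with an asterisk for a KRAB A box) in the 6 libraries (columns, rep for replicate). Rows near the top are bright in every library, while dark cells, where a gene had no count, are common in the lower rows of H3.3 replicates 1 and 2 and K27R replicate 2 and rare in the R26K columns.

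The heat map of levels by library shows where counts were missing. H3.3 replicates 1 and 2 lacked counts for 13 and 17 of the 109 members, K27R replicates 1 and 2 for 2 and 19, and R26K replicates 1 and 2 for 1 and 0. Thinning every library to the smallest total left 5 and 0 members without a count in R26K and changed none of the other 4 numbers. The members were at 0 more often than all genes whose mean reached 10 CPM in 5 of the 6 libraries: 11.9% against 9.83% and 15.6% against 12.2% for H3.3, 1.83% against 1.08% and 17.4% against 10.9% for K27R, and 0.917% against 0.277% for R26K replicate 1. These shares were not matched for level: a mean of 50 CPM was reached by 30 of 109 members and by 2854 of the 6134 tested genes at 10 CPM. A 0 in the shallower libraries allowed up to 3 counts, or 0.235 to 0.278 CPM, a limit for counting error only. Across the members, the Pearson r of log2(CPM + 1) was 0.93 between the R26K libraries, 0.58 between the K27R libraries and 0.42 between the H3.3 libraries. Between groups it ran from 0.30, for K27R replicate 2 with H3.3 replicate 2, to 0.61, for R26K replicate 1 with K27R replicate 1. K27R replicate 1 had 0.43 and 0.53 with H3.3 replicates 1 and 2. The values within H3.3 and within K27R were thus each exceeded by a value between groups, unlike that within R26K. These correlations are descriptions over genes that share a library.

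**Figure D2:**
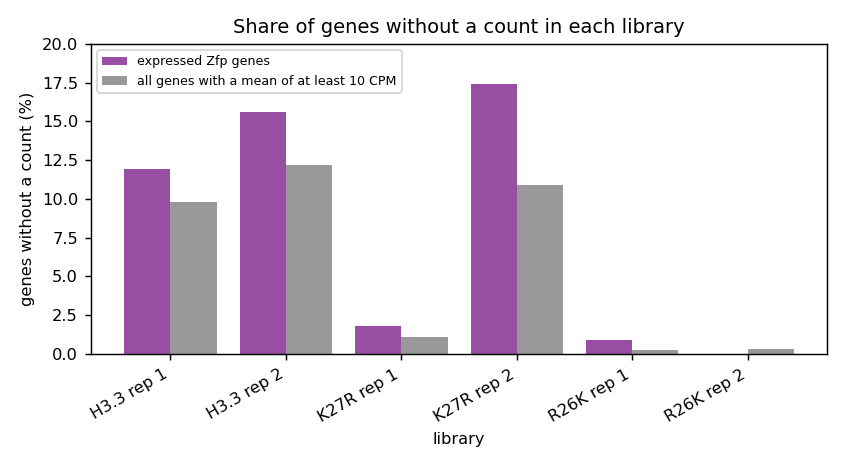
Bars give the share (%) of genes without a count in each library, for the 109 expressed Zfp genes and for all 6135 genes whose mean reached 10 CPM. H3.3 replicates 1 and 2 and K27R replicate 2 stand at 9.83% to 17.4%, and K27R replicate 1 and the R26K libraries under 2%.

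Zfp655, a KRAB gene with 6 fingers (ENSMUSG00000007812.16, chromosome 5, 145231715 to 145247302), had the highest level of the members per kilobase of exon. It held 1271 and 999.6 CPM with unmutated H3.3, 1065 and 695 with K27R and 499 and 569 with R26K. Zfp957 came next, at 607 and 549.8 CPM with unmutated H3.3, 464 and 515 with K27R and 299.6 and 403 with R26K. For both genes the R26K libraries were the lowest of the 6 and the groups H3.3 and R26K did not overlap. Per kilobase, Zfp655 (152 CPM per kb) and Zfp957 (147 CPM per kb) were followed by Zfp873 (102), Zfp735 (81.5), Zfp513 (66.7), Zfp706 (60), Zfp616 (48.7), Zfp51 (46.3), Zfp830 (38.5) and Zfp708 (37), all as means over the 6 libraries. Of these 10, 6 are KRAB genes. The reads of Zfp708 cannot be placed with certainty, because all of its transcript windows of 50 bases also occur in the gene model Gm28557.

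The smallest spread over the 6 libraries, as the SD of log2(CPM + 1), belonged to Zfp560 (0.35), Zfp957 (0.37), Zfp91 (0.39), Zfp60 (0.40) and Zfp207 (0.41). Zfp560 held 39.8 and 44.2 CPM with unmutated H3.3, 71.3 and 63.2 with K27R and 40.8 and 45.9 with R26K. Zfp60, a KRAB gene, held 125 and 229.6 CPM with unmutated H3.3, 256 and 235 with K27R and 152 and 185 with R26K, with overlapping H3.3 and R26K groups. The largest spread belonged to Zfp407 (2.97), Zfp523 (2.89), Zfp938 (2.69), Zfp81 (2.61) and Zfp612 (2.60). Each of these 5 had no count in at least 1 H3.3 library. Zfp81, a KRAB gene, held 0 and 42.9 CPM with unmutated H3.3, 34.3 and 95.2 with K27R and 5.76 and 1.36 with R26K. Zfp612 held 0 and 68.5 CPM with unmutated H3.3, 23.6 and 0 with K27R and 18.5 and 21.4 with R26K, so that its replicates differed more than its groups.

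The first comparison asks how the eggs with the R26 substitution differed from those with unmutated H3.3. The KRAB members were lower as a group in the R26K libraries. Their summed level was 5317 and 4873 CPM with unmutated H3.3, 4689 and 3862 CPM with K27R and 2105 and 2076 CPM with R26K. The median KRAB member stood at 39.8 and 33.5 CPM for H3.3, 30.5 and 28.7 CPM for K27R and 13.2 and 12.9 CPM for R26K. Both R26K libraries were thus below all other libraries in sum and in median. The 49 members without the box were higher in R26K in sum, with 2503 and 2421 CPM for H3.3, 2554 and 2668 CPM for K27R and 3327 and 3807 CPM for R26K. Their medians overlapped between H3.3 (23.8 and 30.6 CPM) and R26K (29.8 and 35.6 CPM). Most of the rise in their sum came from Zfp706, Zfp664 and Zfp513. Group means of these genes were 164, 103 and 49.2 CPM for H3.3 and 542, 403 and 394 CPM for R26K. These are bulk values, in which fewer eggs with a transcript and less transcript per egg cannot be told apart.

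Member by member, edgeR's fitted log2 fold change of R26K against H3.3 was below 0 for 50 of 59 KRAB members (median -1.58) and for 23 of 49 members without the box (median 0.33). Over all 109 members 74 were below 0 (median -0.86), against 38.7% of all 10667 tested genes (median 0.66) and 48.1% of the 6134 tested genes whose mean reached 10 CPM (median 0.07). Among the 51 members that reached 10 CPM in every group the median was -0.61. Both R26K libraries lay below both H3.3 libraries for 39 members, 35.8%, 28 of them KRAB, where 16.7% of all tested genes and 25.4% of those at 10 CPM did so. Both lay above for 27 members, 24.8%, 7 of them KRAB, against 43.3% and 33.4%. For 23 members, 19 of them KRAB, both R26K libraries were below the other 4, which is 21.1% of the members against 9.74% of all tested genes. For 16 members, 14.7%, both were above the other 4, against 25.4% of all tested genes. For both of these counts the share of tested genes at 10 CPM was not taken. In the counts against H3.3 alone, that share lay nearer to the members than the share of all tested genes did. The R26K group mean was the lowest of the 3 for 43 of 59 KRAB members. The 50 of 59 became 39 when H3.3 replicate 1 was left out and 41 when H3.3 replicate 2 was left out. The median of the KRAB members was then -1.07 and -1.61.

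Single members seldom passed the test. At an adjusted p under 0.05, edgeR called 1 member higher and 0 lower in R26K, where it called 0.619% of all tested genes (66 of 10667), 0.403% as higher and 0.216% as lower. At an unadjusted p under 0.05 there were 11 higher and 13 lower members, against 17.6% and 4.14% of all tested genes. Among the 6134 tested genes at 10 CPM, 819 were higher and 435 lower by the same rule. Of the 13 lower, 12 were KRAB members, and of the 11 higher, 2. DESeq2 called 28 members, 13 higher (2 KRAB) and 15 lower (13 KRAB), 25.7% of the members where it called 18.7% of the genes it tested.

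The member that edgeR called was Zfp212 (ENSMUSG00000052763.7, chromosome 6, 47920476 to 47932639), a KRAB gene with 4 fingers whose upstream CGs are shown above. Its KRAB profile score, 9.97, was the lowest of the 59 members called with a box, so its KRAB class is the least certain. Zfp212 held 4.47 and 5.41 CPM with unmutated H3.3, 81.9 and 64.1 with K27R and 125 and 155 with R26K. The 4 libraries with a substituted histone were all more than 10 times above both H3.3 libraries, and the groups did not overlap. Its level rose in R26K (edgeR, log2 fold change 4.92 ± 0.62 (SE), adjusted p = 0.0374). The adjusted p was 0.0587 without H3.3 replicate 2, 0.115 without either K27R library and 0.0943 without R26K replicate 2. The K27R values, which shared the H3.3 libraries, did not pass edgeR's test (log2 fold change 3.89 ± 0.59 (SE), adjusted p = 0.522), whereas DESeq2 called them. Zfp956, the neighbouring member on chromosome 6, whose exons overlap those of Zfp783 in libraries that do not mark strand, held 0.157 and 0.175 CPM with unmutated H3.3, 47.9 and 13.2 with K27R and 25.9 and 22.3 with R26K. Its H3.3 values rested on 2 counts in each library and the difference did not pass (edgeR, log2 fold change 7.24 ± 1.80 (SE), adjusted p = 0.155).

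At a mean of at least 50 CPM, both R26K libraries lay below both H3.3 libraries for 46.7% of 30 members and 34.7% of 2854 tested genes. They lay above for 23.3% and 33.6%. No share of all genes was taken at 100 CPM. Of the 15 members whose mean reached 100 CPM, a class set by counts and not by length, 8 were lower in both R26K libraries than in both H3.3 libraries, 7 of them KRAB genes. Zfp120 held 340.3 and 109 CPM with unmutated H3.3, 166 and 204 with K27R and 37.9 and 31.6 with R26K (edgeR, log2 fold change -2.59 ± 0.62 (SE), adjusted p = 0.146), the widest of these differences. Zfp735 held 509.5 and 443 CPM with unmutated H3.3, 422 and 331 with K27R and 132 and 70.6 with R26K (edgeR, log2 fold change -2.11 ± 0.40 (SE), adjusted p = 0.0864). Zfp51, on chromosome 17, held 257 and 130.3 CPM with unmutated H3.3, 133 and 102 with K27R and 58.7 and 34.5 with R26K (edgeR, log2 fold change -1.94 ± 0.55 (SE), adjusted p = 0.197). In these 3 genes both R26K libraries lay below the other 4, and the H3.3 and K27R ranges overlapped for Zfp120 and Zfp51. Zfp873 held 358 and 598 CPM with unmutated H3.3, 315 and 449 with K27R and 142 and 88.4 with R26K (edgeR, log2 fold change -1.94 ± 0.44 (SE), adjusted p = 0.127). Zfp616 held 322 and 325 CPM with unmutated H3.3, 406 and 255 with K27R and 69.5 and 91.7 with R26K (edgeR, log2 fold change -1.90 ± 0.34 (SE), adjusted p = 0.0771). Zfp961, whose exons overlap those of Cyp4f18, held 167 and 188 CPM with unmutated H3.3, 159.6 and 78.8 with K27R and 63.5 and 37.3 with R26K (edgeR, log2 fold change -1.70 ± 0.54 (SE), adjusted p = 0.213). Here too both R26K libraries were the lowest of the 6. Zfp655, with the values above, had a smaller difference (edgeR, log2 fold change -0.99 ± 0.27 (SE), adjusted p = 0.188). None of these 7 KRAB genes passed edgeR's test as fitted for the values given here, and DESeq2 called all 7 lower. EdgeR also called Zfp735 and Zfp616 lower without a filter on low counts and with the replicate number as a block, Zfp616 with a filter of 10 CPM, and Zfp873 and Zfp735 without R26K replicate 1.

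In the same class, the widest differences with higher values in R26K belonged to genes without a KRAB box. Zfp664 held 115 and 91.8 CPM with unmutated H3.3, 129 and 191 with K27R and 338 and 468 with R26K (edgeR, log2 fold change 2.06 ± 0.38 (SE), adjusted p = 0.0845). Zfp706, which encodes a small protein with 1 finger and overlaps Gm26766, held 154 and 173 CPM with unmutated H3.3, 114 and 269.6 with K27R and 547 and 536 with R26K (edgeR, log2 fold change 1.83 ± 0.47 (SE), adjusted p = 0.164). Zfp513, whose exons overlap those of Snx17, held 16.2 and 82.2 CPM with unmutated H3.3, 44.4 and 59.2 with K27R and 300.4 and 488 with R26K (edgeR, log2 fold change 3.10 ± 0.80 (SE), adjusted p = 0.165). In each of them both R26K libraries were above the other 4, and the 2 H3.3 libraries of Zfp513 differed among themselves by a factor of 5.08.

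**Figure D3:**
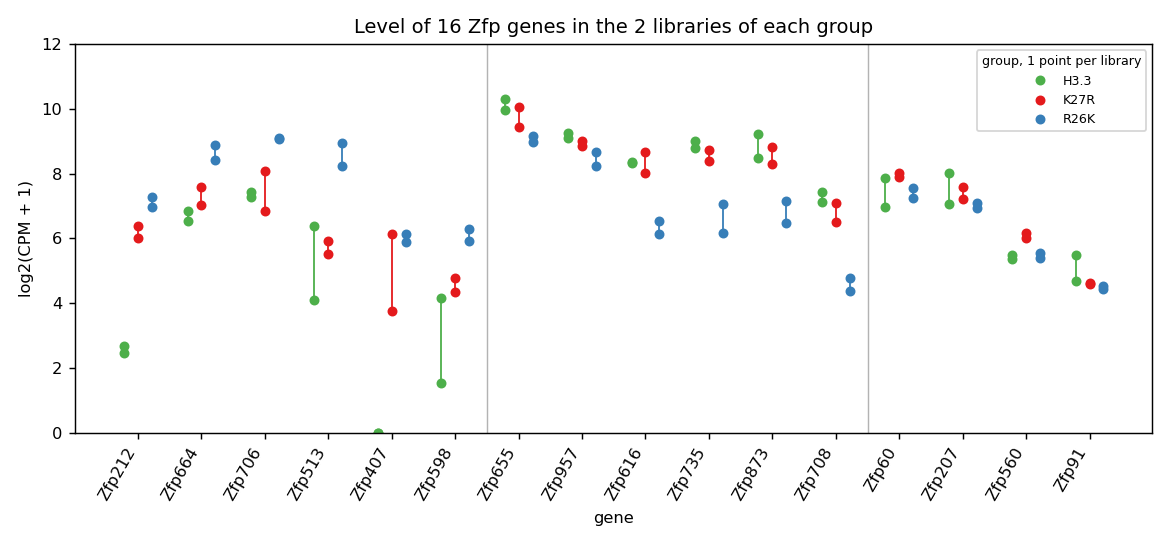
Level as log2(CPM + 1) of 16 expressed Zfp genes, with 1 point for each library and a line joining the 2 libraries of a group. From left to right, 6 genes have R26K points above both H3.3 points, 6 have R26K points below both (Zfp616 at 69.5 and 91.7 CPM against 322 and 325 CPM), and the last 4 are those with the smallest spread other than Zfp957.

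The plot of levels for 16 members sets these genes beside members with little spread. The widest fitted differences in R26K were ranked among members whose groups did not overlap and whose mean over the 4 libraries reached 10 CPM. Zfp407 held 0 and 0 CPM with unmutated H3.3, 69.8 and 12.4 with K27R and 69.3 and 58.4 with R26K. Taking 3 counts in each H3.3 library as the floor, its R26K mean was 257-fold above that floor and did not pass (edgeR adjusted p = 0.078). The floor covers counting error only and not the spread between replicates. Other members, such as Zfp612 above, had 0 CPM in 1 H3.3 library and a high level in the other. Zfp523 held 0 and 0 CPM with unmutated H3.3, 15.9 and 0 with K27R and 43 and 59.6 with R26K. Its R26K mean was 206-fold above the same floor, with an edgeR adjusted p of 0.213. Both genes were thus without counts in the unmutated group and well above the floor in R26K. Zfp740 rested on 1 H3.3 count, a ratio of 703 (95% interval 126 to 27770), and Zfp704 on 1 H3.3 count, a ratio of 501 (95% interval 89.8 to 19811), both intervals covering counting error only. Zfp704 held 0 and 0.0873 CPM with unmutated H3.3, 21.5 and 0 with K27R and 21.2 and 20.1 with R26K, and its K27R libraries fell on both sides of that count. In the other direction, Zfp947 held 25.3 and 86.3 CPM with unmutated H3.3, 11 and 0 with K27R and 1.99 and 0.71 with R26K (edgeR, log2 fold change -5.23 ± 2.72 (SE), adjusted p = 0.294). Zfp260, which lacks the KRAB box, held 14.9 and 55.4 CPM with unmutated H3.3, 49.1 and 48.1 with K27R and 2.98 and 0.0592 with R26K (edgeR, log2 fold change -4.38 ± 1.96 (SE), adjusted p = 0.248). Zfp383 held 70.5 and 71.6 CPM with unmutated H3.3, 30.2 and 54 with K27R and 3.59 and 11.1 with R26K (edgeR, log2 fold change -3.19 ± 1.01 (SE), adjusted p = 0.213). Zfp654 held 198 and 45.9 CPM with unmutated H3.3, 15.9 and 5.92 with K27R and 5.2 and 24.1 with R26K. Zfp770 held 37.5 and 12 CPM with unmutated H3.3, 13.9 and 0.0926 with K27R and 3.84 and 2.01 with R26K, and in both genes H3.3 replicate 1 was well above H3.3 replicate 2.

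Base composition moved with the R26K difference. Over the 109 members the log2 fold change and the GC content of the longest transcript had a Pearson r of 0.43, and over 6105 tested genes at 10 CPM 0.29, both descriptions across genes that share the libraries. Below 40% GC all 27 KRAB members were below 0 (median -1.98), as were 2 of 5 members without the box (median 0.20) and 350 of 479 tested genes at 10 CPM (median -0.86). The summed level of the 447 such genes that are no members was 103250 and 106207 CPM for H3.3, 96845 and 92766 CPM for K27R and 63473 and 57621 CPM for R26K. From 40% to 50% GC, 23 of 30 KRAB members were below 0 (median -1.15), 12 of 23 members without the box (median -0.28) and 1895 of 3410 tested genes (median -0.17). At 50% GC and above, 9 of 23 members were below 0 (median 1.65) and 687 of 2216 tested genes (median 0.76). After each library was corrected for GC content and length the KRAB median was -1.35 with 48 of 59 below 0, the median without the box -0.12, and that of tested genes at 10 CPM -0.31. With the correction Zfp212 no longer passed (log2 fold change 3.36, edgeR adjusted p = 0.0936). Promoter CG moved with the difference too: members below 0 had a median of 9 CG in 250 bases, and members above 0 had 15.5. The parts of GC content, promoter type and KRAB class in the difference were not tested apart.

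**Figure D4:**
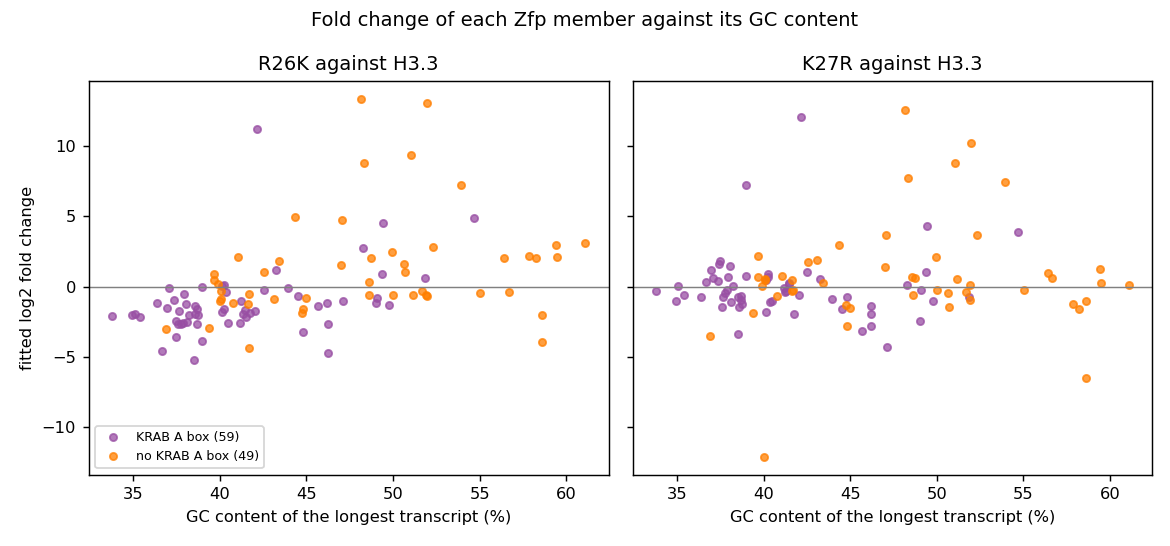
Fitted log2 fold change (vertical axis) of each expressed Zfp gene against the GC content (%) of its longest transcript, for R26K against H3.3 on the left and K27R against H3.3 on the right, with the KRAB class as colour. On the left the 27 KRAB genes below 40% GC all lie under 0, and on the right 15 of the same 27 do.

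With a gap of at most 500 kb, 45 members fell into 13 clusters on the chromosomes. In the clusters of 2 members, both were below 0 in R26K against H3.3 on chromosomes 10, 11 and 18. On chromosomes 7 and 8 it was 1 of 2, and on chromosomes 6 and 9 it was 0. In the 6 clusters with 3 or more members, 30 of 31 genes had a log2 fold change below 0 in R26K. Of all tested genes 38.7% were below 0, and 48.1% of those at 10 CPM. All 31 genes except Zfp260 carry the KRAB box, so this count is not separate from that of the KRAB members. The largest holds 11 KRAB members on chromosome 17 (GRCm38, 21008903 to 22456689: Zfp160, Zfp51, Zfp760, Zfp229, Zfp820, Zfp942, Zfp943, Zfp947, Zfp944, Zfp758 and Zfp946). All 11 had a log2 fold change below 0 for R26K against H3.3, from -5.23 to -0.11 with a median of -1.70, and 7 of 11 did in K27R against H3.3 (median -0.67). On chromosome 13 (67069399 to 67755228) all 5 KRAB members, Zfp708, Zfp58, Zfp748, Zfp738 and Zfp85, were below 0 for R26K (median -2.64). Zfp708 held 139 and 173 CPM with unmutated H3.3, 136 and 90.1 with K27R and 26.3 and 19.9 with R26K. On chromosome 7 (29768552 to 30107622) Zfp84, Zfp383, Zfp74, Zfp568 and Zfp260 were below 0 as well (median -2.63). Another group on chromosome 17 (32965814 to 33394641) held Zfp472, Zfp952, Zfp81 and Zfp101, all below 0 (median -2.04), and Zfp120, Zfp442 and Zfp345 on chromosome 2 (150114406 to 150485091) were also all below 0 (median -2.59). In another group on chromosome 7 (24134169 to 24262445) Zfp235 was above 0 and Zfp109 and Zfp108 below. Some members have sequence in common with another gene and can share reads: 60 of the 109 shared under 1% of their 50-base windows, while 23 shared more than 10%, among them Zfp85 (31.2%), Zfp442 (32.3%) and Zfp58 (50.2%), so that the values of these 23 are uncertain. A further limit is that exons of 35 members overlap another gene, which libraries without strand cannot tell apart.

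**Figure D5:**
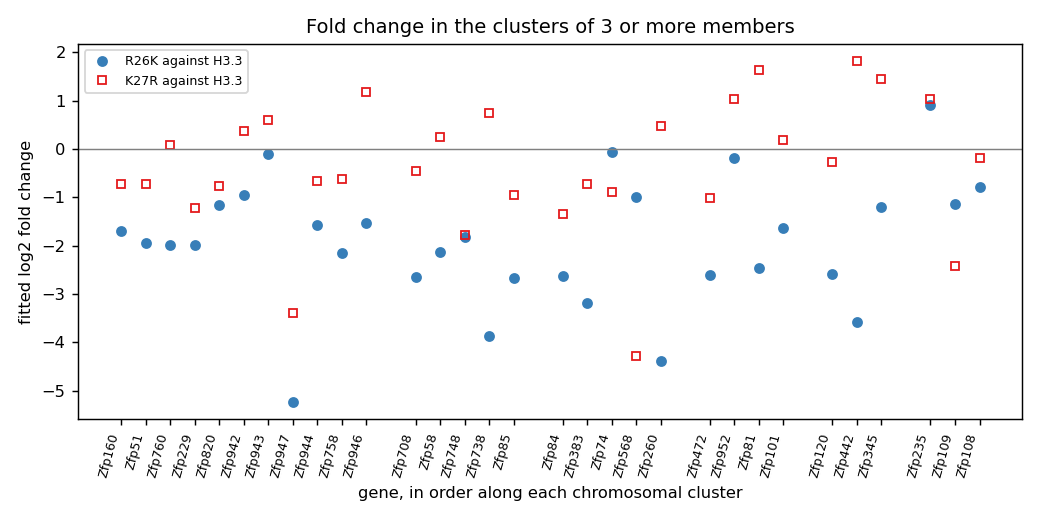
Fitted log2 fold change of the 31 expressed Zfp genes in the 6 chromosomal clusters of 3 or more members, for R26K against H3.3 (filled circles) and K27R against H3.3 (open squares), with genes in order along each cluster. Of the circles, 30 lie under 0 and Zfp235 lies above, while squares fall on both sides.

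The second comparison asks how eggs with the K27 substitution differed from those with unmutated H3.3. The members lay on both sides of the H3.3 level: the median log2 fold change was -0.20, against 0.12 for all tested genes, and 56 of 109 members were below 0, where 42.2% of all tested genes were. For tested genes at 10 CPM the median was 0.003, and 49.8% of them were below 0. The KRAB members had a median of -0.37 with 35 of 59 below 0, and those without the box 0.29 with 20 of 49 below 0. EdgeR called 0 members and 0.0% of all tested genes (lowest adjusted p of a member 0.522), and 7 members were higher and 3 lower at an unadjusted p under 0.05, where 6.05% and 1.07% of all tested genes were. Among the 6134 tested genes at 10 CPM, 316 were higher and 84 lower by the same rule. DESeq2 called 11 members, 10.1% where it called 7.6% of its tested genes. The groups did not overlap for 23 members (21.1%) in the higher direction and 21 (19.3%) in the lower. The shares were 16.1% and 9.56% of all tested genes, and 17.1% and 13.6% of those at 10 CPM. The median was 0.19 without H3.3 replicate 1 and 0.03 without K27R replicate 2, the library with 19 members at 0.

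Several members with wide K27R differences from H3.3 had a library at 0. Zfp846 held 0 and 0 CPM with unmutated H3.3, 13 and 41.4 with K27R and 11.1 and 18.6 with R26K. Its K27R mean was 109-fold above the floor of 3 counts in each H3.3 library, which covers counting error only. The K27R mean of Zfp407 was 165-fold above the same floor. Zfp740 had a ratio of 509 (95% interval 90.9 to 20135) to its 1 H3.3 count, and it held 0.0784 and 0 CPM with unmutated H3.3, 18.7 and 23.5 with K27R and 22.5 and 36.7 with R26K. These genes, with Zfp212 and Zfp956, were higher in both substituted groups than in the H3.3 libraries that both comparisons use. Zfp397, a SCAN gene, held 3.06 and 54.6 CPM with unmutated H3.3, 0 and 0 with K27R and 11.7 and 14.9 with R26K. Zfp341 held 18.7 and 34.5 CPM with unmutated H3.3, 0.606 and 0 with K27R and 6.94 and 5.3 with R26K. Zfp568 held 50.9 and 45.7 CPM with unmutated H3.3, 5.11 and 0 with K27R and 18.1 and 26.9 with R26K. In all 3, both K27R libraries were below the other 4. Zfp397 had no count in either K27R library. Its H3.3 mean was 107-fold above the floor of 3 counts in each K27R library, while its H3.3 libraries themselves differed by a factor of 17.8. The exons of Zfp341 and Zfp740 overlap other genes.

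The third comparison sets the 2 substitutions side by side, with the same R26K libraries as the first. In K27R against R26K the median of the members was 0.54, against -0.32 for all tested genes, 58.1% of which were below 0, and it was 1.16 for the KRAB members, of which 14 of 59 were below 0, and -0.18 for those without the box. For tested genes at 10 CPM the median was -0.09, and 53.1% of them were below 0. EdgeR called 0 members and 0.375% of all tested genes (lowest adjusted p of a member 0.0975, Zfp616). At an unadjusted p under 0.05, 8 members were higher, all of them KRAB, and 4 lower, none of them KRAB, against 3.43% and 9.82% of all tested genes. Among the 6134 tested genes at 10 CPM, 356 were higher and 516 lower by the same rule. DESeq2 called 12 members, 11.0% where it called 8.83% of its tested genes. K27R lay above R26K without overlap for 42 members (38.5%), 29 of them KRAB, and below for 23 (21.1%). The shares were 19.6% and 34.3% of all tested genes, and 27.9% and 31.1% of those at 10 CPM. The median of the members was -0.22 without K27R replicate 1, so the sign of that median rested on this library. Zfp442 held 9.88 and 7.51 CPM with unmutated H3.3, 18.1 and 41.7 with K27R and 0.0505 and 1.33 with R26K (edgeR, log2 fold change 5.39 ± 2.29 (SE), adjusted p = 0.397). Zfp938 held 0 and 53.4 CPM with unmutated H3.3, 30 and 37.3 with K27R and 0.0253 and 2.13 with R26K (edgeR, log2 fold change 4.91 ± 3.31 (SE), adjusted p = 0.701). Zfp738 held 17.7 and 5.06 CPM with unmutated H3.3, 30.5 and 8.05 with K27R and 0.0505 and 1.42 with R26K (edgeR, log2 fold change 4.61 ± 2.46 (SE), adjusted p = 0.539). In the 3 genes the K27R libraries were above both R26K libraries, which were at or near 0. Zfp553 held 16.5 and 29.8 CPM with unmutated H3.3, 15.9 and 0 with K27R and 84.9 and 93.3 with R26K. Zfp692 held 9.18 and 30.8 CPM with unmutated H3.3, 18 and 0 with K27R and 105 and 63.2 with R26K. Both genes were higher in R26K and neither was called (edgeR adjusted p = 0.614 and 0.692).

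Among sequence-specific silencers, 2 of 6 listed genes were members. Zfp568, a KRAB protein that silences a placental promoter of Igf2, had the values above, with 0 to 5.11 CPM for K27R. Zfp708, which binds a family of retroelements, was lower in R26K without passing (edgeR, log2 fold change -2.64 ± 0.50 (SE), adjusted p = 0.0871). The other 4 were under 10 CPM: Zfp445 (3.23 CPM), an imprint regulator, Zfp809 (0.917 CPM), which silences proviruses, Zfp932 (3.46 CPM) and Zfp819 (3.80 CPM). None of the 6 was called in any comparison by edgeR. In R26K against H3.3 its unadjusted p was under 0.05 for 1 of them, lower, as for 4.14% of all tested genes.

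Of 22 listed chromatin and transcription cofactors 16 were tested, 10 of them members, and edgeR called 0 in each comparison. In R26K against H3.3 its unadjusted p was under 0.05 for 1 higher and 0 lower, against 17.6% and 4.14% of all tested genes. The median was -0.04. Zfp131, a BTB-domain transcription factor, held 178 and 39.3 CPM with unmutated H3.3, 168 and 177 with K27R and 134 and 156 with R26K. Zfp277, a Polycomb-associated protein, held 81.9 and 148 CPM with unmutated H3.3, 132 and 184 with K27R and 90 and 86.5 with R26K. Zfp148, a factor that binds GC-rich promoters, held 89.7 and 43.2 CPM with unmutated H3.3, 82.2 and 53.3 with K27R and 61.1 and 81.7 with R26K. For these 3 genes both R26K values lay inside the range of the H3.3 values. Zfp592, which is found in complexes with the reader ZMYND8, held 11.5 and 110.2 CPM with unmutated H3.3, 64.2 and 64.1 with K27R and 35.4 and 35.6 with R26K. Zfp410, an activator of Chd4, held 38.7 and 107 CPM with unmutated H3.3, 21.5 and 0 with K27R and 29.8 and 14.7 with R26K. Zfp318 (54.1, 19 and 28.5 CPM as means of H3.3, K27R and R26K), Zfp618 (46.8, 25.4 and 28.3 CPM) and Zfp532 (10.8, 8.36 and 31.8 CPM) were likewise not called, and Zfp532 shares 36.7% of its windows with another gene model. For Zfp592 the 2 H3.3 libraries differed by more than any pair of group means, and for Zfp410 the other 4 libraries lay below both H3.3 libraries.

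Of 5 genes linked to pluripotency, 3 were members and none was called. Zfp296, a factor of embryonic stem cells, held 34.9 and 3.49 CPM with unmutated H3.3, 33.1 and 14.3 with K27R and 84 and 69.4 with R26K. Zfp281, which acts with the core pluripotency factors, held 0 and 26.6 CPM with unmutated H3.3, 22.8 and 73.8 with K27R and 5.61 and 7.7 with R26K. Zfp143, a promoter-binding factor, held 0 and 65.2 CPM with unmutated H3.3, 27.9 and 0 with K27R and 8.66 and 7.7 with R26K. Both R26K libraries of Zfp296 were above both H3.3 libraries, while those of Zfp281 and Zfp143 lay between an H3.3 library at 0 and a higher one. Of the others, Zfp42 (Rex1) had a mean of 0.136 CPM and Zfp462 had no count.

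Of 15 listed genes whose proteins act on RNA, ribosomes, ubiquitin, SUMO or the spindle, 13 were tested, 8 of them members. In R26K against H3.3, 10 of the 13 were fitted above 0, where 61.3% of all tested genes were. EdgeR called 0, with 7 higher and 0 lower at an unadjusted p under 0.05, against 17.6% and 4.14% of all tested genes, and a median of 2.96. Of the 7, only Zfp706 and Zfp106 were members. The others were Zfp36, Zfp326, Zfp346, Zfp622 and Zfp593, at means of 0.426 to 6.23 CPM. Genes this low can be kept for testing through the R26K libraries alone, so these counts do not describe the members. Of the 8 members, Zfp207, Zfp330 and Zfp91 were fitted below 0. In K27R against R26K 4 were lower and 0 higher at an unadjusted p under 0.05, against 9.82% and 3.43% of all tested genes. Of these 4, Zfp706 was the only member. Zfp598, the ubiquitin ligase of collided ribosomes, held 1.88 and 16.9 CPM with unmutated H3.3, 26.2 and 19.3 with K27R and 59.1 and 76.5 with R26K (edgeR, log2 fold change 2.96 ± 1.29 (SE), adjusted p = 0.243). Zfp106, an RNA-binding protein whose exons overlap Gm26899, held 0.628 and 4.28 CPM with unmutated H3.3, 57.1 and 6.2 with K27R and 61.5 and 59.8 with R26K (edgeR, log2 fold change 4.73 ± 1.65 (SE), adjusted p = 0.213). Zfp451, a SUMO ligase, held 30.1 and 0 CPM with unmutated H3.3, 32.1 and 18.4 with K27R and 62.5 and 58.9 with R26K. R26K was above both H3.3 libraries in these 3. Zfp207, the spindle protein BuGZ, held 259 and 132 CPM with unmutated H3.3, 190.0 and 146 with K27R and 135 and 121 with R26K. Zfp830 held 29.6 and 68.7 CPM with unmutated H3.3, 61.6 and 93.7 with K27R and 62.5 and 51.8 with R26K, and Zfp330, a nucleolar protein, held 22.1 and 57.1 CPM with unmutated H3.3, 42.6 and 72.1 with K27R and 23.1 and 17.2 with R26K. Zfp91, a ubiquitin ligase, held 24.6 and 44.3 CPM with unmutated H3.3, 22.9 and 23.4 with K27R and 20.7 and 22.2 with R26K. The H3.3 and R26K ranges of Zfp207, Zfp830 and Zfp330 overlapped, and Zfp91 was slightly lower in both R26K libraries.

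None of the co-repressors that KRAB boxes recruit was called. Of 28 listed genes 25 were tested, and edgeR called 0 in each comparison. In R26K against H3.3, 2 were higher and 0 lower at an unadjusted p under 0.05 (median 0.08), against 17.6% and 4.14% of all tested genes. In K27R against H3.3 it was 0 and 0 (median 0.07), against 6.05% and 1.07%. Trim28 held 142 and 36 CPM with unmutated H3.3, 151 and 143 with K27R and 176 and 201 with R26K (edgeR, log2 fold change 1.19 ± 0.65 (SE), adjusted p = 0.321 for R26K against H3.3). Setdb1 held 101 and 18.1 CPM with unmutated H3.3, 57.1 and 66.7 with K27R and 34.5 and 49.1 with R26K (edgeR, log2 fold change -0.41 ± 0.93 (SE), adjusted p = 0.87). H3.3 replicate 2 was the lowest of the 6 libraries for both. The smallest p in R26K against H3.3 belonged to Gatad2a, a subunit of the NuRD complex, at 182 and 196 CPM with unmutated H3.3, 141 and 269.8 with K27R and 763 and 889.8 with R26K (edgeR, log2 fold change 2.23 ± 0.40 (SE), adjusted p = 0.078). Chd4, the remodeller of the same complex, held 16.4 and 1.57 CPM with unmutated H3.3, 75.5 and 42.5 with K27R and 97 and 161 with R26K (edgeR, log2 fold change 3.94 ± 1.19 (SE), adjusted p = 0.213), and Dnmt1, the maintenance DNA methyltransferase, held 442 and 568 CPM with unmutated H3.3, 493 and 325 with K27R and 550.4 and 1282 with R26K (edgeR, log2 fold change 0.95 ± 0.43 (SE), adjusted p = 0.248). In K27R against H3.3 the smallest p after that of Chd4 belonged to Mbd3, at 0.784 and 0 CPM with unmutated H3.3, 0 and 0 with K27R and 19.5 and 21.6 with R26K, and to Ehmt1, at 34 and 7.51 CPM with unmutated H3.3, 96.5 and 31.7 with K27R and 76.3 and 57.1 with R26K.

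Other zinc finger families gave a background for the members. At a mean of at least 10 CPM, 12 Zbtb genes, whose proteins carry a BTB domain in place of a KRAB box, had a median log2 fold change of 0.12 for R26K against H3.3, with 5 below 0. The 3 Zkscan genes, which can carry SCAN and KRAB domains, had a median of -1.09, and the 2 Zscan genes -0.61. None of these was called by edgeR. At an unadjusted p under 0.05, 4 Zbtb genes were higher and 1 lower, against 17.6% and 4.14% of all tested genes. Of the 6134 tested genes at 10 CPM, 819 were higher and 435 lower. Of the 223 Zfp genes under 10 CPM, 93 were tested, and 80 of these were fitted above 0 in R26K against H3.3 (median 7.32), where H3.3 libraries often had no count. A gene this low can be kept for testing through the R26K libraries alone. The direction of these 93 can thus be set in part by the filter, and they are no background for the members. The difference between these families and the members was not tested.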

How the data were processed

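MII eggs of 3 groups were profiled with 2 libraries each, made from poly(A)-primed cDNA (SMARTer) with Nextera, which does not mark strand, and read as single 50-base reads, per the labels. The submitters' processing notes list featureCounts, SAMtools 1.3, TopHat2 2.1.0 and cutadapt 1.9.1, and the build mm10. For the annotation, the strand setting and multi-mapping reads, the choice is not given in the sources used here. Deposited values are whole-number read counts per gene, not normalized by the authors. Groups and replicate numbers came from the sample titles.

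Levels are CPM of the column total. TMM factors lay between 0.931 and 1.06. Tests were edgeR 4.0.16 (glmQLFit and glmQLFTest, R 4.3.3) on all 10667 genes kept by filterByExpr, with 6 libraries, 3 group means and 3 residual degrees of freedom. They were two-sided, and Benjamini-Hochberg adjustment ran over every gene tested, at a threshold of 0.05. SE is the log2 fold change over the square root of F. All 109 members were tested. The scripts were tested on simulated counts.

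The KRAB A box was called by a residue profile 36 positions wide, scored above 0, and fingers by a C2H2 pattern, both on translated GENCODE M21 coding sequences in place of the RefSeq proteins planned. A truncated box can be missed. None of 40 Zbtb genes scored above 0.

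Alternatives were DESeq2 1.42.0, other scalings, filters and designs, a GC and length correction, and each library left out. The KRAB counts were repeated under these settings as an addition made after the values were seen. The members and gene lists were chosen with earlier results of these data known. Named genes are the called members, the 10 highest by CPM and by CPM per kb, the 5 widest differences in each direction per comparison among members whose groups do not overlap and whose mean over the compared libraries is at least 10 CPM, the 5 smallest and 5 largest spreads, the 3 genes on each side of the inclusion level, and the role lists. To these come Trim28, Setdb1 and the 3 co-repressors of smallest p against H3.3. Zfp236, Zfp330, Zfp449, Zfp750 and the cluster members were named for their position or features. Zfp120 and Zfp961 were named after their values were seen. A gene of the same symbol form is not reported here.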

Additional observations from a re-analysis of the deposited data

How the results depend on the processing

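The number of members called in R26K against H3.3 (1 by edgeR with all libraries) was 28 with DESeq2, 5 without a filter, 2 with a filter of 10 CPM, 0 with only the 2 groups in the fit, 6 with the replicate block, 0 with the GC and length correction and 0 to 5 with a library left out. It was 0 without H3.3 replicate 2, K27R replicate 1 or K27R replicate 2. It was 2 without H3.3 replicate 1 and 5 without R26K replicate 1. Without R26K replicate 2 it was 1, with Zfp407 called and Zfp212 not. The cause was not tested, except that fewer libraries leave fewer degrees of freedom. Zfp212 had an adjusted p of 0.0705 with only the 2 groups in the fit. The median log2 fold change of the members there (-0.86) was -1.07 with upper-quartile scaling, which moved the median of all tested genes by -0.20, -0.60 with the replicate block, and -0.90 to -0.35 with a library left out. In K27R against H3.3, DESeq2 called 11, and the median (-0.20) was 0.093 with the replicate block and -0.32 to 0.19 with a library left out. In K27R against R26K, DESeq2 called 12, the replicate block 3 and fits without a library 0 to 2. The median there (0.54) was 0.77 with upper-quartile scaling, which moved the median of all tested genes by 0.22, and -0.22 to 0.57 with a library left out. With a library left out, KRAB members below 0 in R26K against H3.3 numbered 39 to 50 of 59, and members without the box 19 to 23 of 49. Same-numbered libraries did not deviate together (r 0.0032, -0.0099 and 0.0136), so the numbers do not pair them. The number of members was 134 at 5 CPM, 75 at 20 CPM and 86 by the median over libraries. Where a library is left out of a pair, the remaining one is assumed to vary like the other groups.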
